A study of Mus musculus with 6 samples.

Results

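The genes described here are 10 regulators of alternative splicing, taken from the gene table by symbol out of 46983 annotated genes: the muscleblind-like genes Mbnl1, Mbnl2 and Mbnl3, the CELF genes Celf1 and Celf2, the RBFOX genes Rbfox1 and Rbfox2, the polypyrimidine tract binding genes Ptbp1 and Ptbp2, and the muscle splicing factor Rbm20. They were measured by RNA-seq in aortic valves isolated from wild type C57BL/6J mice at postnatal day 2 (PND2), when the leaflets still grow, and at 4 months, when the adult valve is maintained. Each age had 3 libraries, and each library came from a pool of 5 to 6 mice, so each SD below is the spread between pools. Each SE comes from the limma fit described below, which draws the variance toward a trend over all genes or exons tested. The comparison asked which of these regulators, and which exons of theirs, differed between the growing and the adult valve.

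Splicing regulators of these families bind short motifs in pre-mRNA and favour or block the inclusion of nearby exons. In heart and skeletal muscle, MBNL proteins gain and CELF proteins lose influence after birth, and the pair often act in opposite directions on the same exons. PTBP1 holds back many tissue-restricted exons, RBFOX proteins promote exons of brain and muscle, and RBM20 shapes the titin transcript of cardiomyocytes. Several of these genes also splice their own transcripts, or those of their paralogs, into forms that differ in localization or stability.

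Library totals of 23810507 to 38994657 reads, and whole reads per gene and exon, were recovered for the 6 libraries from the RPKM values (reads per kilobase of exon, scaled to library size). These totals set the RPKM scale and are not the numbers of sequenced reads, of which the paper gives a higher average. A change is given as log2(RPKM + 0.1) at 4 months minus that at PND2, from a limma fit over 25903 genes, and was called at an adjusted p under 0.05. Over all those genes the median change was -0.14, and scaling each library to its median gene moved changes upward by 0.12, so small changes are given on both scales. The tissue was a mixture: the summed RPKM of 6 valve interstitial markers ran from 5913 to 6356 at PND2 and from 7613 to 9626 at 4 months, while that of 12 cardiomyocyte markers ran from 14608 to 16032 and from 5860 to 10069, and none of either list was at 0. Counting only called genes, proliferation markers fell in 6 of 6, endothelial markers in 6 of 6 and cardiomyocyte markers in 7 of 12 (all 12 were lower), whereas smooth muscle, macrophage and adipocyte markers each rose in 5 of 6. Schwann cell markers rose in 3 of 6, lymphocyte markers in 3 of the 5 tested, valve interstitial markers rose in 2 and fell in 3 of 6, and 1 of 6 neuron markers fell. In bulk tissue, fewer cells of a type and less RNA per cell cannot be told apart.

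All 10 regulators passed the filter of at least 0.1 RPKM in 3 libraries, and 8 were called, 3 higher and 5 lower at 4 months, where 35.8% of all genes tested were called, 14.7% higher and 21.1% lower. The voom fit on recovered reads called the same number, 8, against 37.4% of all genes. Mbnl3 passed that filter through its PND2 libraries alone. The ages did not overlap for 9 of the 10, all but Rbfox2, against 50.0% of all genes. The median change of the 10 was -0.33. With median scaling 6 were called, 4 higher (Mbnl1, Mbnl2, Celf2 and Rbfox1) and 2 lower (Mbnl3 and Rbm20), against 33.7% of all genes, 17.8% higher and 15.9% lower.

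**Figure D1:**
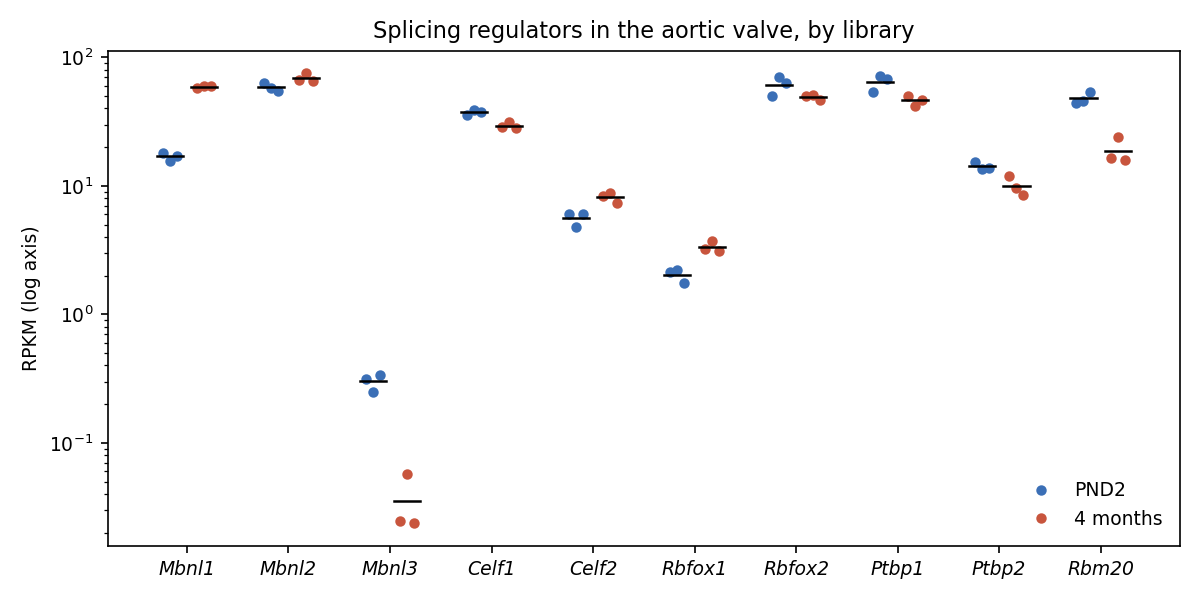
RPKM of the 10 splicing regulators on a log axis, 1 point per library (blue PND2, red 4 months, n = 3 each) with black bars at the mean. Mbnl1 moved from 16.9 to 58.9 RPKM and Rbm20 from 47.8 to 18.7, while the 2 ages of Rbfox2 overlap.

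At PND2 the order of mean levels was Ptbp1, Rbfox2, Mbnl2, Rbm20, Celf1, Mbnl1, Ptbp2, Celf2, Rbfox1 and Mbnl3. The libraries of the first 3 overlapped with their neighbours in that order, and no others did. At 4 months it was Mbnl2, Mbnl1, Rbfox2, Ptbp1, Celf1, Rbm20, Ptbp2, Celf2, Rbfox1 and Mbnl3, with overlap between Rbfox2 and Ptbp1 and between Ptbp2 and Celf2. Mbnl1 thus went from rank 6 to rank 2 and Rbm20 from rank 4 to rank 6. Levels between genes are per kilobase of all annotated exon sequence, which lowers genes with many rarely used exons, such as Mbnl1 with 18717 and Celf2 with 25884 annotated bases.

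The muscleblind-like family showed the widest range of changes. Mbnl1 (ENSMUSG00000027763, chr3:60472830-60629750, mm10, plus strand) encodes a zinc finger protein that drives adult splicing patterns in striated muscle. Its level was 18.0, 15.6 and 17.2 RPKM in the PND2 libraries and 57.3, 59.7 and 59.6 RPKM at 4 months. Every adult library was thus more than 3 times as high as any PND2 library. The mean rose 3.48-fold, from 16.9 ± 1.22 to 58.9 ± 1.37 RPKM (SD, n = 3), a log2 change of 1.79 ± 0.09 (SE, adjusted p = 3.69e-05, limma). It was 1.92 with median scaling, and it was called under each of the 18 alternatives run, with changes between 1.74 and 1.92. Smooth muscle markers went from a summed 733 to 978 RPKM at PND2 to 2950 to 4369 RPKM at 4 months, and macrophage markers from 192 to 245 RPKM to 407 to 523 RPKM, and their part in the rise of Mbnl1 was not tested.

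Mbnl2 (ENSMUSG00000022139, chr14:120275669-120431697, plus strand), the closest paralog of Mbnl1, was high at both ages. Its level was 62.6, 57.8 and 54.3 RPKM at PND2 and 66.8, 75.2 and 65.8 RPKM at 4 months, so the ages stood apart by a small gap. The log2 difference of 0.25 ± 0.10 did not pass the test (adjusted p = 0.086, limma), and it was 0.37 with median scaling (adjusted p = 0.040). Mbnl3 (ENSMUSG00000036109, chrX:51117269-51206532, minus strand), a member linked to immature muscle cells, was the scarcest of the regulators. It had 107, 66 and 87 reads at PND2 and 8, 12 and 6 reads at 4 months, or 0.314, 0.247 and 0.340 RPKM against 0.025, 0.058 and 0.024 RPKM. Its mean was 8.51-fold lower at 4 months, and its log2 change of -1.57 ± 0.35 (adjusted p = 0.012, limma) depended on the pseudocount, with -2.84 at 0.01, -0.33 at 1 and -3.18 on reads with voom. Without any 1 of the PND2 libraries it failed the filter and was not tested.

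Within the family the balance moved toward Mbnl1. The ratio of Mbnl2 to Mbnl1 was 3.48, 3.71 and 3.16 in the PND2 libraries and 1.17, 1.26 and 1.11 at 4 months, a log2 difference of -1.55. Mbnl1 supplied 22.4% ± 1.38 of the summed RPKM of the 3 genes at PND2 and 46.0% ± 1.62 at 4 months (SD, n = 3). The ratio of Mbnl3 to Mbnl1 differed by -5.01 on the log2 scale, and by -4.59 where values of up to 10 reads were set to the level of 10 reads. These ratios are taken within a library and do not depend on its scaling. Their size does depend on the annotated length of each gene, 18717 bases in Mbnl1 and 4552 in Mbnl2. The median tested exon can also stand for the gene's level, an alternative added after the data were seen. By it the means of Mbnl1 and Mbnl2 were 25.9 and 57.5 RPKM at PND2, and 91.9 and 68.4 RPKM at 4 months.

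Mbnl1 and Mbnl2 share a pair of alternative exons. A coding exon of 54 bases in each gene, a known target of the MBNL proteins themselves, carries part of the nuclear localization signal. A second coding exon of 95 bases lies further 3′, and since its length leaves a remainder of 2 after division by 3, skipping it changes the reading frame downstream. The 4 exons are shown from the transcript sequences of GENCODE M21 (GRCm38, the build mm10), 5′ to 3′ on the coding strand. Capitals mark the bases that differ between the paralogs. They are shown because their levels relative to the flanking exons were lower at 4 months in every library of both genes. Their own RPKM was not lower in every case, and none passed the usage test described next. The 54-base exons differ at 8 positions (85.2% identity) and the 95-base exons at 14 (85.3% identity). Each is an internal exon and wholly coding in at least 1 annotated transcript. The 95-base exons were chosen after their values were seen.
Mbnl1, 54 bases, chr3:60614683-60614736: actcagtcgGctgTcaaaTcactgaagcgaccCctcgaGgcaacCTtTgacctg
Mbnl2, 54 bases, chr14:120395712-120395765: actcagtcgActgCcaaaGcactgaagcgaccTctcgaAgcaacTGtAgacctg
Mbnl1, 95 bases, chr3:60622146-60622240: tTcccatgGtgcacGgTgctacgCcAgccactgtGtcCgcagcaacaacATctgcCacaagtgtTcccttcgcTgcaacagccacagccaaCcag
Mbnl2, 95 bases, chr14:120404638-120404732: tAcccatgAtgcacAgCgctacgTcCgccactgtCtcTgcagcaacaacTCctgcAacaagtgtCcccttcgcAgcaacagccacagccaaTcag

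Exon levels are given as RPKM in percent of the geometric mean of the nearest tested exons of at least 60 bases on either side. A read that touched an exon was counted on it, which raises short exons at both ages, so these percentages can pass 100 and are not inclusion rates. Usage change is the log2 difference between ages of exon RPKM over gene RPKM, tested with limma over 244017 exons and called at an adjusted p under 0.05 and a change of at least 1. Of 270 exons tested in 9 of the regulators (Mbnl3 had none above the minimum), 0 were called, where 0.0553% of all exons were. By the unadjusted p under 0.05, 53 of the 270 passed (19.6%) against 10.5% of all exons. With limma's diffSplice on reads with voom weights, 11 of the 270 were called, where 0.337% of all exons were. Many of these exon records overlap and share reads. In simulated data this usage test found 9% of exons changed 2-fold. A 2-fold change is also the least size that is called, so such exons could fail on size alone.

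The 95-base exon of Mbnl2 stood at 58.1, 80.3 and 71.5% of its flanking exons at PND2 and at 14.3, 9.70 and 15.5% at 4 months. It held 109, 133 and 104 reads at PND2 and 35, 14 and 27 at 4 months, while the RPKM of Mbnl2 as a gene was not lower. Its usage change was -2.37 ± 0.30 (SE, adjusted p = 0.079, limma), -2.25 by diffSplice (adjusted p = 6.84e-05) and -2.42 against the flanking exons (adjusted p = 0.011, limma, an alternative chosen after the data were seen). The matching exon of Mbnl1 stood at 64.7, 71.5 and 79.9% at PND2 and at 28.6, 28.5 and 34.2% at 4 months. Its usage change was -1.24 ± 0.29 (adjusted p = 0.25, limma), -1.13 by diffSplice (adjusted p = 0.0010) and -1.24 against the flanking exons (adjusted p = 0.010). Relative to the flanking exons, all PND2 libraries lay above all adult ones in both genes. The own RPKM of the Mbnl1 exon was 39.95, 72.78 and 77.34 at PND2 and 85.96, 84.88 and 97.10 at 4 months. It was thus higher at 4 months, and its fall was relative to its flanking exons and its gene. The own RPKM of the Mbnl2 exon was lower at 4 months. Whether either exon is called depends on the test and on the reference for usage.

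The 54-base exon was well below its flanking exons at both ages. In Mbnl1 it stood at 9.80, 7.42 and 7.90% of the flanking exons at PND2 and at 1.31, 3.17 and 0.61% at 4 months. Those values rest on 9, 8 and 8 reads and on 6, 9 and 2 reads, and the usage change of -2.43 ± 0.58 did not pass (adjusted p = 0.27, limma). In Mbnl2 it stood at 20.8, 15.9 and 28.6% at PND2 and at 13.3, 11.4 and 9.74% at 4 months, on 9 to 26 reads per library. There the usage change was -0.91 ± 0.33 (adjusted p = 0.42, limma). The ages did not overlap for either exon, but the 4 months values lay close to the PND2 range in Mbnl2.

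**Figure D2:**
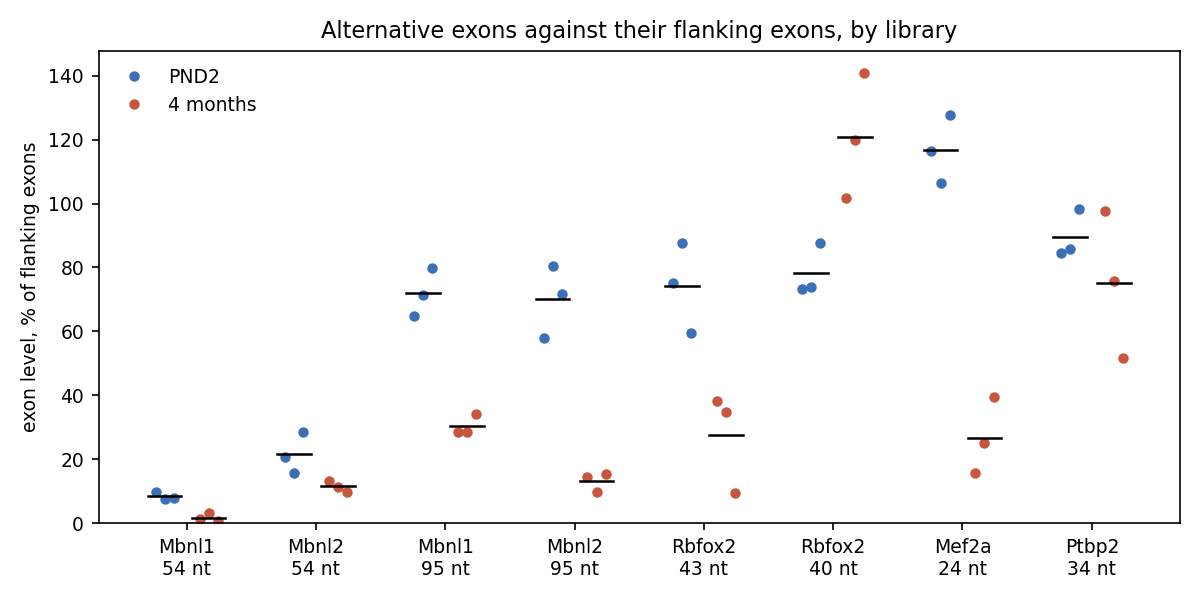
Level of 8 alternative exons as a percentage of their flanking exons, 1 point per library (blue PND2, red 4 months, n = 3 each) with black bars at the mean. The 95-base exons of Mbnl1 and Mbnl2, the 43-base exon of Rbfox2 and the 24-base exon of Mef2a lie lower in every library at 4 months, the 40-base exon of Rbfox2 lies higher, and the 34-base exon of Ptbp2 overlaps between ages.

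The other exons of Mbnl1 that diffSplice called lie in 8 overlapping records at chr3:60528756-60531622, in the 5′ part of the gene, and in an exon that runs on from a coding exon at chr3:60615620-60619047. Their usage changes ran from -1.20 to -1.16. The levels of the first group were still higher at 4 months, for example going from 16.2, 25.1 and 26.1 RPKM to 34.7, 37.5 and 28.7 RPKM in the record of 1049 bases, which is less than the gene as a whole. The long 3′ terminal exons went from 70.3, 50.1 and 56.6 RPKM to 226.1, 241.2 and 245.7 RPKM in the record of 3371 bases. Both records were picked after their values were seen. The log2 level of the last exon over the other exons of Mbnl1 was 2.16, 1.02 and 1.12 at PND2 and 2.64, 2.61 and 2.84 at 4 months, a shift of 1.26. Over 11844 genes the median of that measure shifted by 0.14, and the first PND2 library, at 0.09, stood apart from the other PND2 libraries at -0.14 and -0.13. The part of this 3′ weighting in the exon results was not tested. Taking the median exon as the gene's level, an alternative added after the data were seen that called 39.0% of all genes, gave a change of 1.87 ± 0.22 for Mbnl1 (adjusted p = 1.62e-04, limma).

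**Figure D3:**
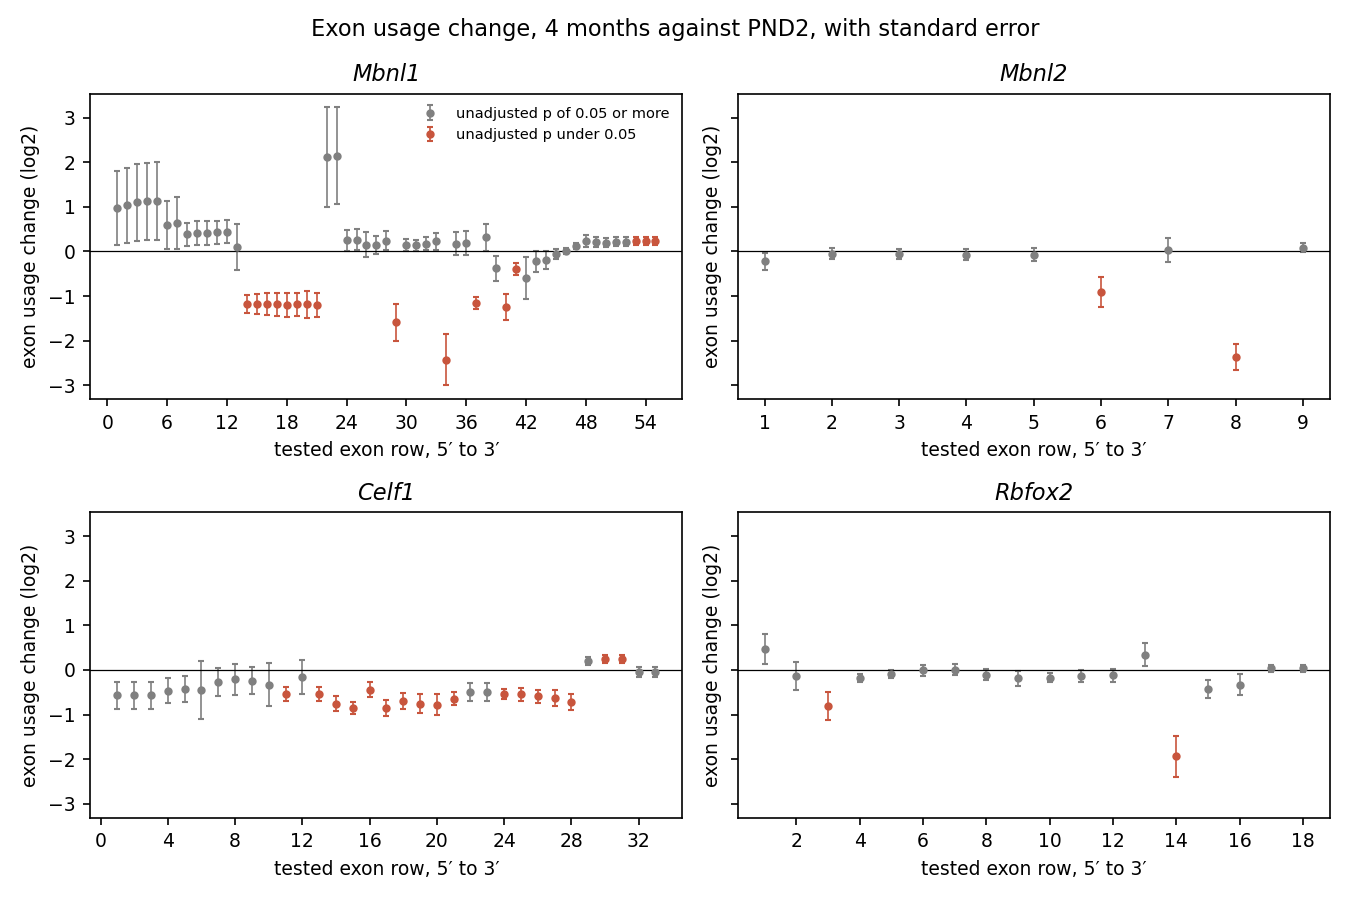
Exon usage change (log2, 4 months minus PND2, with standard error) for each tested exon record of Mbnl1, Mbnl2, Celf1 and Rbfox2, ordered 5′ to 3′. Red points have an unadjusted p under 0.05. In Mbnl2 and Rbfox2 single exons stand below the rest, whereas in Celf1 nearly all records upstream of the 3′ end lie below 0.

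Celf1 (ENSMUSG00000005506, chr2:90940382-91019497, plus strand) encodes an RNA binding protein of embryonic splicing patterns in heart that also promotes mRNA decay. Its level was 35.8, 39.1 and 37.6 RPKM at PND2 and 28.5, 31.3 and 28.4 RPKM at 4 months, with no overlap. The log2 change was -0.35 ± 0.09 (adjusted p = 0.021, limma), but -0.23 with median scaling, which lost the call (adjusted p = 0.093). The change was uneven along the gene. A coding exon of 49 bases (chr2:91001462-91001510) went from 68.6, 96.3 and 83.0 RPKM to 31.1, 42.9 and 33.8 RPKM, a usage change of -0.85 ± 0.13 (adjusted p = 0.13, limma) that was not called. The terminal exon of 6260 bases went from 36.1, 35.7 and 34.6 RPKM to 30.9, 33.7 and 31.1 RPKM. Both records were picked after their values were seen. Usage was lower at 4 months in 30 of the 33 tested records of Celf1, 15 of them at an unadjusted p under 0.05, and 2 of the terminal records passed that level upward, where 10.5% of all exons passed it in either direction. The log2 level of the last exon over the other exons shifted by 0.80 in Celf1, against the median of 0.14 over all genes. With the median exon as gene level the change of Celf1 was -0.69 ± 0.15 (adjusted p = 0.0065, limma).

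Celf2 (ENSMUSG00000002107, chr2:6539694-7509563, minus strand), the paralog of muscle, brain and lymphocytes, moved the other way. It stood at 6.06, 4.76 and 6.01 RPKM at PND2 and at 8.32, 8.73 and 7.39 RPKM at 4 months. The change was 0.54 ± 0.15 (adjusted p = 0.032, limma), 0.66 with median scaling (adjusted p = 0.016) and 0.25 ± 0.17 by the median exon (adjusted p = 0.27). An antisense lincRNA, Gm26565, overlaps 7.58% of its exonic length, and strand was not stated for the counting. The log2 level of the last exon over the other exons shifted by 0.51 in Celf2, against the median of 0.14 over all genes. It was -0.05, -0.83 and -0.80 at PND2 and -0.38, 0.07 and 0.16 at 4 months, so the ages overlapped. The ratio of Celf2 to Celf1 was 0.169, 0.122 and 0.160 at PND2 and 0.292, 0.279 and 0.260 at 4 months. Macrophage markers, 5 of 6 called higher, and lymphocyte markers, with a summed 0.796 to 1.70 RPKM at PND2 and 2.24 to 3.81 RPKM at 4 months, moved the same way, and their part in the rise of Celf2 was not tested.

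Set against each other, the summed Mbnl genes exceeded the summed Celf genes by 1.93, 1.68 and 1.65 times at PND2 and by 3.37, 3.37 and 3.51 times at 4 months. That is a log2 difference of 0.97, with an SD between libraries of 0.13 at PND2 and 0.03 at 4 months. Of the genes in these sums, Mbnl1 rose by 1.79 and Celf2 by 0.54, Mbnl3 and Celf1 fell by 1.57 and 0.35, and Mbnl2 differed by 0.25. The size of the ratio depends on the annotated length of each gene, from 4552 bases in Mbnl2 to 25884 in Celf2. By the median exon, Mbnl1 and Mbnl2 had means of 25.9 and 57.5 RPKM at PND2, and Celf1 and Celf2 of 49.0 and 21.4. At 4 months these were 91.9 and 68.4 RPKM, and 30.2 and 25.6 RPKM.

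**Figure D4:**
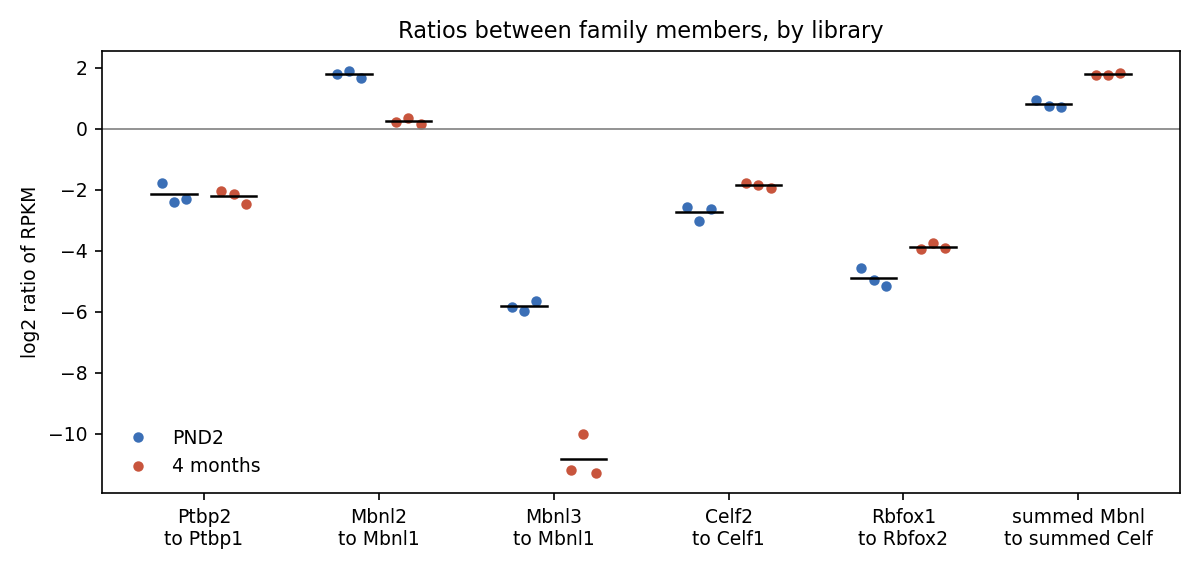
Log2 ratio of RPKM between family members in each library (blue PND2, red 4 months, n = 3 each), with black bars at the mean and a line at equal levels. Mbnl2 to Mbnl1 lies nearer to equality at 4 months, Celf2 to Celf1, Rbfox1 to Rbfox2 and summed Mbnl to summed Celf lie higher, and Ptbp2 to Ptbp1 overlaps between ages. The distance from equality depends on the annotated length of each gene.

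Rbfox2 (ENSMUSG00000033565, chr15:77078990-77307053, minus strand), the broadly expressed RBFOX gene, stood at 50.4, 69.8 and 63.0 RPKM at PND2 and at 49.9, 50.5 and 46.5 RPKM at 4 months. The ages overlapped through the first PND2 library. Its log2 difference of -0.31 ± 0.13 did not pass (adjusted p = 0.11, limma), and without that library it was -0.44 (adjusted p = 0.015). Rbfox1 (ENSMUSG00000008658, chr16:6809222-7412479, plus strand), expressed mainly in neurons and striated muscle, was far lower. It stood at 2.14, 2.22 and 1.76 RPKM at PND2 and at 3.21, 3.72 and 3.10 RPKM at 4 months, a change of 0.69 ± 0.19 (adjusted p = 0.029, limma) and of 0.81 with median scaling. By its median exon the change was 0.58 ± 0.43 (adjusted p = 0.31). The ratio of Rbfox1 to Rbfox2 was 0.042, 0.032 and 0.028 at PND2 and 0.064, 0.074 and 0.067 at 4 months.

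Rbfox2 holds a pair of neighbouring coding exons of 43 and 40 bases near the region that encodes the C terminus, known in the RBFOX family as the muscle and the brain type exon. Both lengths leave a remainder of 1 after division by 3, so either keeps the same downstream frame. They are shown because their levels against the flanking exons differed in opposite directions, although neither passed the usage test, and they were chosen after their values were seen. Both are given 5′ to 3′ on the coding strand from GENCODE M21 transcripts, with no bases marked.
Rbfox2, 43 bases, chr15:77091812-77091854: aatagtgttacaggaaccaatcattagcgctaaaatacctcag
Rbfox2, 40 bases, chr15:77094451-77094490: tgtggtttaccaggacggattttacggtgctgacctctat

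The 43-base exon stood at 75.3, 87.6 and 59.6% of its flanking exons at PND2 and at 38.3, 34.8 and 9.31% at 4 months. Its usage change of -1.94 ± 0.47 did not pass (adjusted p = 0.27, limma). The 40-base exon stood at 73.3, 74.0 and 87.7% at PND2 and at 101.7, 119.7 and 140.8% at 4 months, with a usage change of 0.34 ± 0.26 (adjusted p = 0.71, limma). The ratio of the RPKM of the first to that of the second was 1.03, 1.18 and 0.679 at PND2 and 0.375, 0.289 and 0.065 at 4 months. Those exon levels rest on 53, 84 and 54 reads at PND2 and on 23, 14 and 5 reads at 4 months for the 43-base exon. The 40-base exon had 48, 66 and 74 reads at PND2 and 57, 45 and 72 at 4 months. Its own RPKM overlapped between ages, with 30.8, 54.1 and 63.2 at PND2 and 38.2, 47.2 and 62.2 at 4 months. Its higher level at 4 months was thus relative to its flanking exons. All 12 cardiomyocyte markers were lower at 4 months over the same libraries, 7 of them called. Their part in the shift between these 2 exons was not tested.

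Ptbp1 (ENSMUSG00000006498, chr10:79854427-79864771, plus strand), a repressor of neuronal and muscle exons, was the highest of the regulators at PND2. Its level was 53.4, 71.6 and 68.0 RPKM at PND2 and 49.9, 41.9 and 46.9 RPKM at 4 months, and the change was -0.47 ± 0.13 (adjusted p = 0.031, limma). Ptbp2 (ENSMUSG00000028134, chr3:119718742-119784466, minus strand), its paralog of neurons and testis, stood at 15.4, 13.6 and 13.9 RPKM at PND2 and at 12.0, 9.54 and 8.50 RPKM at 4 months. Its change was -0.53 ± 0.15 (adjusted p = 0.032, limma). With median scaling neither was called, at -0.35 (adjusted p = 0.053) and -0.40 (adjusted p = 0.064). On the opposite strand, Gm17134, Lppr3 and E130317F20Rik overlap 9.22%, 5.30% and 1.79% of the exonic length of Ptbp1, at separate positions. Proliferation markers, all 6 lower, went from a summed 35.7 to 68.8 RPKM to 4.42 to 4.80 RPKM, and their part in the fall of these genes was not tested.

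The 2 genes fell together, and their ratio showed no direction. Ptbp2 stood at 0.289, 0.190 and 0.204 of Ptbp1 at PND2 and at 0.240, 0.228 and 0.181 at 4 months. PTBP1 is known to keep Ptbp2 low by skipping its exon of 34 bases, which leaves a transcript open to decay, so that exon is shown 5′ to 3′ from GENCODE M21.
Ptbp2, 34 bases, chr3:119724612-119724645: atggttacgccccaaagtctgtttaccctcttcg

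That exon stood at 84.4, 85.8 and 98.3% of its flanking exons at PND2 and at 97.7, 75.8 and 51.6% at 4 months. The ages overlapped, and the usage change was -0.24 ± 0.27 (adjusted p = 0.82, limma).

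Rbm20 (ENSMUSG00000043639, chr19:53677306-53867080, plus strand) fell the most of the regulators with more than 1 RPKM. Its level was 44.0, 45.7 and 53.8 RPKM at PND2 and 16.6, 23.8 and 15.8 RPKM at 4 months. The mean was 2.55-fold lower at 4 months, 18.7 ± 4.42 against 47.8 ± 5.20 RPKM (SD, n = 3), a log2 change of -1.37 ± 0.17 (adjusted p = 0.0012, limma), and -1.24 with median scaling. The per-gene unequal-variance test left it just outside the threshold (adjusted p = 0.055). The cardiomyocyte markers had a summed 14608, 14659 and 16032 RPKM at PND2 and 5860, 10069 and 6947 RPKM at 4 months. All 12 were lower at 4 months, 7 of them called, with a median change of -1.19. The highest adult library was the same for Rbm20 and for those markers, and their part in the fall of Rbm20 was not tested. Of its 18 tested exons, 15 had lower usage at 4 months, 5 of them at an unadjusted p under 0.05, where 10.5% of all exons passed in either direction. Its last exon over the other exons shifted by 0.42 on the log2 scale, against the median of 0.14 over all genes.

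**Figure D5:**
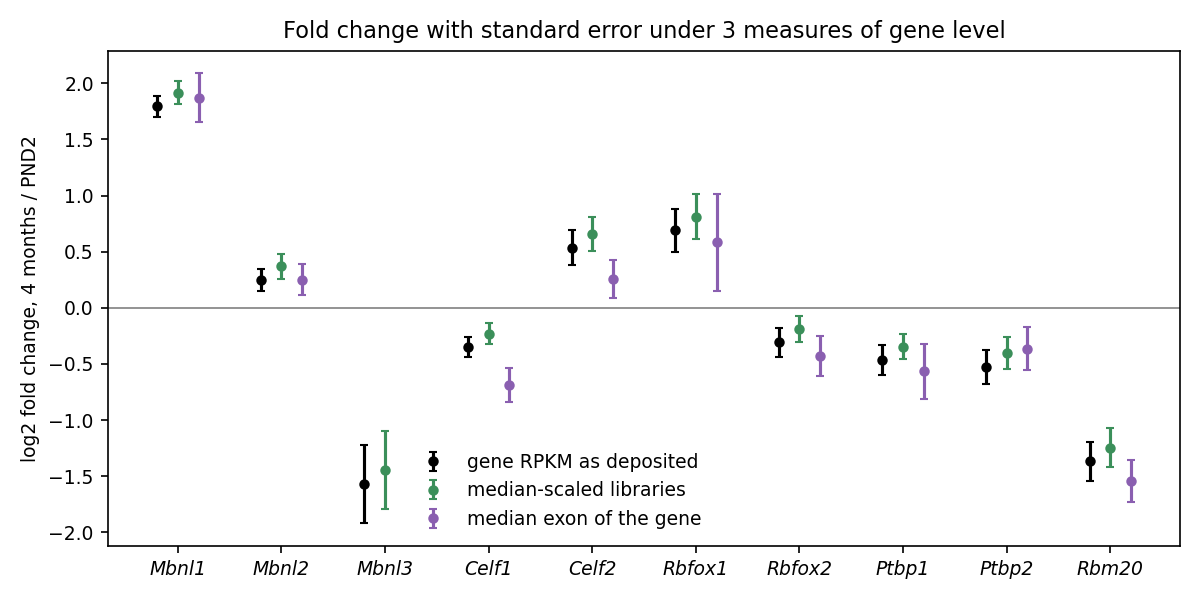
Log2 fold change (4 months over PND2) of each regulator with its standard error, from gene RPKM as deposited (black), from median-scaled libraries (green) and from the median exon of the gene (purple; Mbnl3 had no exon above the minimum). Mbnl1 lies near 1.8 and Rbm20 between -1.54 and -1.24 under all 3 measures, while the smaller changes move with the measure.

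The calls were of unequal strength. Leaving out each of the 6 libraries in turn, Mbnl1 and Rbm20 were called each time. Mbnl3 was tested in the 3 fits that kept all PND2 libraries, through which it passes the filter, so these fits say nothing of its stability. Celf1 was called without the first PND2 or the second 4 months library and lost without the others, with adjusted p from 0.023 to 0.075. Celf2 and Rbfox1 were called without the first PND2 library and lost without each of the others, with adjusted p up to 0.098 and 0.095. Ptbp1 kept its call without the first PND2 library or the first 4 months library, and Ptbp2 without the first 4 months library, and both lost it otherwise, with adjusted p up to 0.10 and 0.098. Mbnl2 passed in 0 of those 6 fits. Their direction held in each of these fits.

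Textbook exons regulated by such factors, including those of Mbnl1, Mbnl2 and Ptbp2 above, were looked up by gene and length. Of 9 listed exons 6 could be tested, in 7 records, with 0 called. Among them the 24-base exon of Mef2a, a muscle and neuron type exon of a transcription factor gene, had the lowest unadjusted p (1.69e-04, limma). It is shown for that reason, 5′ to 3′ on the coding strand.
Mef2a, 24 bases, chr7:67244521-67244544: tcggaggaagaggaattggagttg

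It stood at 116.3, 106.4 and 127.8% of its flanking exons at PND2 and at 15.5, 24.9 and 39.6% at 4 months, on 115 to 127 and 16 to 27 reads. The usage change was -2.33 ± 0.30 (adjusted p = 0.081, limma), -2.23 by diffSplice (adjusted p = 2.97e-04) and -2.23 against flanking exons (adjusted p = 0.034). The cardiomyocyte markers moved in the same direction, and their part was not tested. The alternative 3′ exon of Itga6, an integrin gene, had a usage change of 0.03 ± 0.17 (adjusted p = 0.98, limma), and the 21-base exon of Mef2d had 2.99 ± 1.89 (adjusted p = 0.64), on 0 to 20 reads. The second 54-base record of Mbnl1 was a first exon, with a usage change of 0.24 ± 0.21. The listed exon of Mef2c was below the minimum level, and no record of the listed length was found for Insr or Numb.

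Of 75 other regulators of splicing tested, 36 were lower, 4 were higher and 35 did not pass, where 21.1% of all genes tested were lower and 14.7% higher. Their median change was -0.38 against -0.14 over all genes. Median scaling left 20 lower and 4 higher, against 15.9% lower and 17.8% higher over all genes, with a median of -0.26 against -0.02. By class, 13 of 17 cofactors, 10 of 17 hnRNP genes, 6 of 13 SR protein genes and 3 of 6 SR protein kinases were lower, and 1 cofactor and 1 hnRNP gene were higher. Of 16 tested tissue-restricted regulators 3 were lower and 2 higher.

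The falls with the largest change among genes above 1 RPKM were those of Msi1, a neural progenitor factor (-1.48), the muscle factor Rbm24 (-1.35), Tia1, which helps U1 snRNP to bind weak splice sites (-1.31), the paraspeckle protein gene Sfpq (-1.24) and Rbm38 (-1.06). Rbm24 went from 66.3, 73.4 and 77.8 RPKM to 22.7, 38.1 and 26.5 RPKM (adjusted p = 0.0019, limma), highest at 4 months in the same library as Rbm20. Sfpq went from 134.2, 130.1 and 114.8 RPKM to 49.2, 59.4 and 52.2 RPKM (adjusted p = 2.91e-04). The 4 rises were those of Srrm4 (1.31), Raver2, which encodes a partner of PTB proteins (0.97), Khdrbs3 (0.70) and Hnrnph3 (0.33). Srrm4, which promotes neuronal microexons, stood at 0.394, 0.488 and 0.754 RPKM at PND2 and at 1.01, 1.82 and 1.68 RPKM at 4 months (adjusted p = 0.023).

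Among paralogs outside the 10, Ptbp3 fell from 25.4 ± 5.42 to 16.8 ± 0.74 RPKM (SD, n = 3; log2 change -0.58, adjusted p = 0.026, limma). The others were low and did not pass. Celf3 had a log2 difference of -0.74, Celf4 of -1.17, Celf5 of 0.77, Celf6 of -0.54 and Rbfox3 of -0.68, with mean levels of at most 4.05 RPKM at either age.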

How the data were processed

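Aortic valves of 3 PND2 and 3 4 months pools were sequenced as paired-end reads from a stranded mRNA kit. After quality filtering and trimming, the authors used TopHat2 2.1.0 for alignment to mm10 and easyRNASeq for counting on Ensembl exons and genes, and deposited RPKM values per gene and per exon, before their read minimum and floor. R 3.2.2 is also named in the submitters' processing notes. Whether the counting used strand is not given in the sources used here.

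Reads were recovered from RPKM, length and library total, and 100% of gene values came out whole within 0.01. They summed over genes to 2.31 to 2.36 times the library totals, so a read could be counted more than once. Genes were fitted with limma 3.58.1 in R 4.3.3 (lmFit, eBayes with trend) on log2(RPKM + 0.1), and p-values were adjusted by Benjamini-Hochberg over all genes. A fold on this scale understates low genes. Exon records with the same gene and coordinates were merged (387776 of 448141), and those with a mean of at least 1 RPKM in genes with at least 2 such exons were tested. In simulated data of this comparison the gene fit recovered 62% of 2-fold and 99% of 4-fold changes among 25903 genes, and the exon fit 9% and 94% among 244017 exons. The planted 2-fold exon changes lay at the size threshold for a call. The simulated exons were independent of each other and their gene levels had no noise, unlike the real records. The alternatives were other pseudocounts, filters, scalings and variance models, a per-gene unequal-variance test as in the study but without its read floor and minimum, values floored at 10 reads, voom on the recovered reads (which called 9696 genes), other references for exon usage, a replicate block and each library left out. Fits by the median exon and against flanking exons were added after the data were seen.

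The 10 members, the lists of other splicing regulators and markers and the target exons were chosen with earlier results of these data known. All members and paralogs were named, with the 5 called rises and 5 called falls of the wider list with the largest change and a mean of at least 1 RPKM at the higher age (only 4 rises qualified), and the target exons found. For any other exon the text says that its values were known when it was picked. Figures were drawn with Python 3.11.15, numpy 2.4.6, pandas 2.3.3 and matplotlib 3.10.9.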

Additional observations from a re-analysis of the deposited data

How the results depend on the processing

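Of the 10 regulators 8 were called. That count was 5 without the variance trend, 4 with the per-gene unequal-variance test, 3 with the median exon as gene level, and 2 to 7 with 1 library left out. Replicate numbers did not pair the libraries (correlation of deviations between same-numbered libraries 0.04, -0.06 and -0.16). With them as a replicate block 4 regulators were called (Mbnl1, Mbnl3, Ptbp2 and Rbm20), with 26 of the wider list. Mbnl3 entered that fit, as the main one, through its PND2 libraries alone. The wider list gave 40 calls, 20 with the unequal-variance test, 24 with median scaling and 23 to 36 with a library left out (23 without the third 4 months library). Marker genes gave 46 calls, and 25 with the unequal-variance test. Exon calls in the regulators went from 0 to 1 without the trend, 3 with the median exon as reference, 11 with diffSplice, 3 against flanking exons and 0 to 1 with a library left out (1 without the first PND2 library). Against flanking exons one of the 3 was an Mbnl2 exon of 154 bases whose neighbour is the 95-base exon itself. Target exons gave 1 call with diffSplice and 1 against flanking exons, both the Mef2a exon. The difference in the log2 ratio of Ptbp2 to Ptbp1, -0.06, ran from -0.18 to 0.12 with a library left out and turned upward without the first PND2 library (0.12) or the third 4 months library (0.06). The usage change of the Ptbp2 exon, -0.24, ran from -0.48 to 0.055 with a library left out, the latter without the third 4 months library. The cause of these changes was not tested. In simulated data 2-fold changes of exon usage were mostly missed. They lie at the size threshold for a call, so this does not show what 3 pools per age can detect. Exons with about 10 reads per library have a wide counting error.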

Other observations

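Exons of the wider splicing regulators were tested in the same fit. Of 1607 exons 0 were called by the usage test in limma, 225 (14.0%) passed an unadjusted p under 0.05 against 10.5% of all exons, and diffSplice on reads with voom weights called 5, a share near the 0.337% of all exons. The values of these 5 are given as a description, and they were picked after their values were seen. An exon of 78 bases of the splicing kinase gene Clk4 (chr11:51268769-51268846) stood at 39.3, 38.0 and 36.8% of its flanking exons at PND2 and at 15.2, 20.2 and 19.3% at 4 months, a usage change of -1.75 (adjusted p = 0.057, limma; diffSplice -1.70, adjusted p = 0.0091). A neighbouring Clk4 exon of 59 bases had 83, 59 and 64 reads and then 26, 16 and 40 reads, a usage change of -1.51. It stood at 102.8, 88.0 and 125.5% of its flanking exons at PND2 and at 63.2, 49.1 and 121.9% at 4 months. There the ages overlapped, with a change of -0.53 (adjusted p = 0.77, limma), and the upstream flanking exon is the 78-base exon itself. An exon of 239 bases of Rbm39 (chr2:156168993-156169231) went from 7.83, 6.72 and 10.7 RPKM to 2.24, 0.527 and 1.45 RPKM, a usage change of -2.16 (adjusted p = 0.26, limma; diffSplice adjusted p = 0.0089), while Rbm39 itself went from 120.0 to 84.0 RPKM. Exon records of Hnrnpd (5399 bases) and Hnrnpr (1615 bases) had usage changes of 0.93 and 0.90.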
